A study of Mus musculus with 48 samples.

Results

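The 10 UDP-glucuronosyltransferase genes described here were taken by symbol from the 23732 genes of a liver count table: Ugt2a3, Ugt2b1, Ugt2b5, Ugt2b34, Ugt2b35, Ugt2b36, Ugt2b37, Ugt2b38, Ugt3a1 and Ugt3a2. All 10 had a row, and all 10 passed the filter on low counts, which left 14836 genes to test. Liver RNA came from 48 male C57BL/6 mice aged 4 to 6 months, 24 called KO and 24 called WT. The KO mice were Bmal1f/f with EsrCre, a universal Cre that tamoxifen switches on, so the clock gene Bmal1 was removed in adulthood and not in liver alone. The WT mice were Bmal1f/f littermates without Cre, so floxed alleles were shared by both genotypes, and an effect of Cre itself and of the loss of Bmal1 cannot be told apart. Both genotypes were gavaged with 5 mg of tamoxifen a day for 5 days, waited 7 days and were then kept dark for 36 h before sampling at ZT0, ZT4, ZT8, ZT12, ZT16 or ZT20, with 4 mice per genotype and time.

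UDP-glucuronosyltransferases are membrane enzymes of the endoplasmic reticulum that move a sugar from a UDP-sugar onto small lipophilic molecules, which can then leave the cell in bile or blood. Enzymes of the Ugt2 families use UDP-glucuronate and act on steroids, bile acids, fatty acids and drugs, and the liver is their main site. The Ugt3 enzymes use other sugars; the human enzymes are known to take N-acetylglucosamine (UGT3A1) and glucose or xylose (UGT3A2).

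Levels are CPM, the share of a library's counts on a common scale, after TMM scaling, a correction for library composition. Library totals lay between 33562272 and 34035644 counts after a step before deposit that is not described, so they do not show how deeply each mouse was sequenced. The smallest deposited count of any of the 10 genes in any library was 124, for Ugt2b38 in a KO mouse of ZT4. Its exact 95% Poisson interval was 103 to 148, for counting error only and taking the count as a number of reads. Body weight, in the same mice, was 27.9 ± 2.52 g in KO and 30.5 ± 2.08 g in WT (SD, n = 24 each). The 4 libraries farthest from their groups in an earlier look at these data all came from KO mice (mouse 20 and mouse 21 from the ZT12 group, mouse 43 and mouse 44 from the ZT0 group), and results that rest on them are given with and without them. Arntl, the symbol of Bmal1 in the table, averaged 14.2 CPM in KO and 23.5 CPM in WT, with a 24 h amplitude of 0.18 in KO and 2.03 in WT on the log2 scale (adjusted p = 6.669e-05 for the difference, edgeR); counts over the whole gene include exons that may lie outside the deletion. Of the 5 hepatocyte markers tested (Apoa1, Ttr, Serpina1c, Cps1 and Tat), the lowest mean was 1514 CPM in KO and 1776 CPM in WT, both for Tat. In RNA from whole liver, fewer cells of a type and less RNA per cell cannot be told apart.

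The 8 Ugt2 genes lay in 1 cluster on chromosome 5, between 87318792 (the start of Ugt2b34) and 87853228 (the end of Ugt2b38) in mm9, the build of the count table. Ugt3a1 (9209584 to 9244787) and Ugt3a2 (9265305 to 9300710) were neighbours on chromosome 15. Ugt2b37 spanned 87669518 to 87683829 and Ugt2b1 spanned 87345663 to 87355555 on chromosome 5. No other row of the table overlapped any of the 10.

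RefSeq promoters (GRCm38.p6, 250 bases before to 50 after the start) were found for 9 of the 10 genes; Ugt3a2 had no entry. The E-box CACGTG, the motif bound by BMAL1, was in 0 of the 9 and in 7.15% of all 32851 promoters. The D-box TTATGTAA, searched on both strands, was in 1 of the 9, Ugt2b1, and in 0.938% of all promoters. TAGGTCA, the REV-ERB and ROR element, also searched on both strands, was in 0 of the 9 and in 2.61% of all promoters. A match is a description of the letters only. A stretch of 70 bases from 8 of the 9 promoters, all but that of Ugt2a3, is shown. Compared base by base without gaps, it places the genes in a close group and a distant group. The stretches are 5′ to 3′ on the strand of the gene, and capitals mark the bases on which they were lined up:
Ugt2b37: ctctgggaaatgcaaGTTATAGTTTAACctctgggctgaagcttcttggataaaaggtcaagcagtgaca
Ugt2b38: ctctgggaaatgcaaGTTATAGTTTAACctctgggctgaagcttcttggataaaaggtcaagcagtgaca
Ugt2b5: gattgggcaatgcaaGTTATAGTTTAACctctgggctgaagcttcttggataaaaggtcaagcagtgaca
Ugt2b36: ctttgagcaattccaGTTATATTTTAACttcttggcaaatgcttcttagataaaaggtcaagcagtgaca
Ugt2b1: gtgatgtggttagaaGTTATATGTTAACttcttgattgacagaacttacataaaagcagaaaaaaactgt
Ugt2b34: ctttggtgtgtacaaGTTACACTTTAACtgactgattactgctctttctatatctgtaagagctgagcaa
Ugt2b35: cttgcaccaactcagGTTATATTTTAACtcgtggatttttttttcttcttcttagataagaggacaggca
Ugt3a1: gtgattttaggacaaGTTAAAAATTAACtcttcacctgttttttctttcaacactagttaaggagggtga

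These windows ended between 7 bases (Ugt2b5) and 76 bases (Ugt3a1) before the start. They lie at chr5:87254812-87254881 (minus strand) for Ugt2b37, chr5:87424213-87424282 (minus) for Ugt2b38, chr5:87140347-87140416 (minus) for Ugt2b5, chr5:87092565-87092634 (minus) for Ugt2b36, chr5:86926538-86926607 (minus) for Ugt2b1, chr5:86906956-86907025 (minus) for Ugt2b34, chr5:87000775-87000844 (plus) for Ugt2b35 and chr15:9279684-9279753 (plus) for Ugt3a1 in GRCm38.p6. Compared base by base without gaps, the windows of Ugt2b37 and Ugt2b38 differed at 0 of 70 bases. Ugt2b5 differed from each of them at 4, and Ugt2b36 at 12. Ugt2b1 differed from Ugt2b37 at 34 of 70. The D-box of Ugt2b1 reads ttacataa on the gene's strand and starts 59 bases before the start, within the window printed above.

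The coding sequences grouped the genes in part as the windows did. Ugt2b35 differed: its window matched that of Ugt2b36 at 54.3% of bases without gaps. Its coding sequence, aligned with gaps, matched at 89.0%, about as close as Ugt2b36 was to Ugt2b5 (89.3%). These shares are unlike measures, because a shift of a few bases lowers a match counted without gaps. Whether the windows of Ugt2b35 and Ugt2b36 match better with gaps was not tested. Ugt2b5 and Ugt2b38 were identical at 97.04% of aligned coding bases, Ugt2b5 and Ugt2b37 at 94.7%, Ugt2b37 and Ugt2b38 at 94.1%, and Ugt3a1 and Ugt3a2 at 93.4%. Ugt2b1 reached at most 79.7% with any other of the 10, with Ugt2b34.

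**Figure D1:**
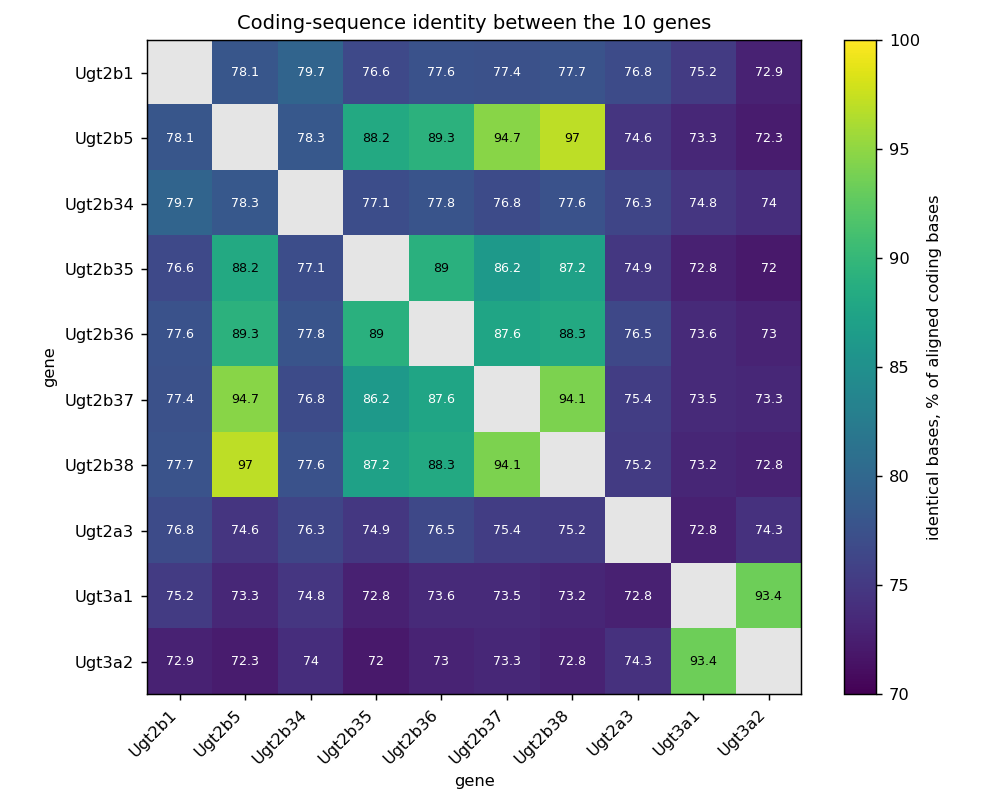
Identity between the coding sequences of the 10 genes (rows and columns), in percent of aligned bases; grey marks a gene against itself. Ugt2b5, Ugt2b37 and Ugt2b38 form a block of 94.1 to 97.04%, and Ugt3a1 and Ugt3a2 a pair at 93.4%.

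How the authors treated reads that match several genes, and the read length, are not given in the sources used here, so shared stretches were counted in reference transcripts for lengths of 50 and of 100 bases. Of the 50-base windows, 41.7% in Ugt2b5, 37.4% in Ugt2b38 and 18.3% in Ugt2b37 also occurred in another gene. With 100 bases these shares were 24.7%, 24.2% and 1.06% for the same 3 genes. Ugt3a1 and Ugt3a2 each shared 9.39% of windows with any other gene at 50 bases and 0% at 100. With each other they shared 8.88% of the windows of Ugt3a1 and 8.55% of those of Ugt3a2 at 50 bases. Ugt2a3 (4.55%), Ugt2b34 (2.07%), Ugt2b35 (0.725%) and Ugt2b36 (0.326%) shared little at 50 bases, and Ugt2b1 shared 0% at either length. Levels of Ugt2b5, Ugt2b37 and Ugt2b38 are therefore uncertain to the extent that reads were split among them.

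Per kilobase of exon, Ugt2b5 was the most abundant of the 10 and Ugt2b38 the least, in both genotypes. Mean levels in CPM per kb were 492 ± 71.9 in KO and 491 ± 94.2 in WT for Ugt2b5, and 13.1 ± 12.2 in KO and 9.79 ± 5.17 in WT for Ugt2b38 (SD, n = 24 each). Lengths are from GENCODE M21 and may differ from the gene models the authors used.

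In KO the order from the top was Ugt2b5, Ugt2b36 (395 CPM per kb), Ugt2b1 (316), Ugt2a3 (279), Ugt3a2 (214.5), Ugt2b34 (147), Ugt2b35 (87.8), Ugt3a1 (28.1), Ugt2b37 (25.4) and Ugt2b38. In WT the order was Ugt2b5, Ugt2b36 (355 CPM per kb), Ugt2a3 (274), Ugt2b1 (247), Ugt3a2 (185), Ugt2b34 (149), Ugt2b35 (80.7), Ugt3a1 (30.9), Ugt2b37 (11.6) and Ugt2b38. Most neighbours in these orders kept their places within single mice. Ugt2b1 stood above Ugt2a3 in 12 of 24 KO mice, so that pair had no order in KO. In WT mice Ugt2b37 stood above Ugt2b38 in 15 of 24, and their spreads overlapped widely. The 10 genes together made up 4872 ± 731 CPM in KO and 4472 ± 600.2 CPM in WT (SD, n = 24 each).

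**Figure D2:**
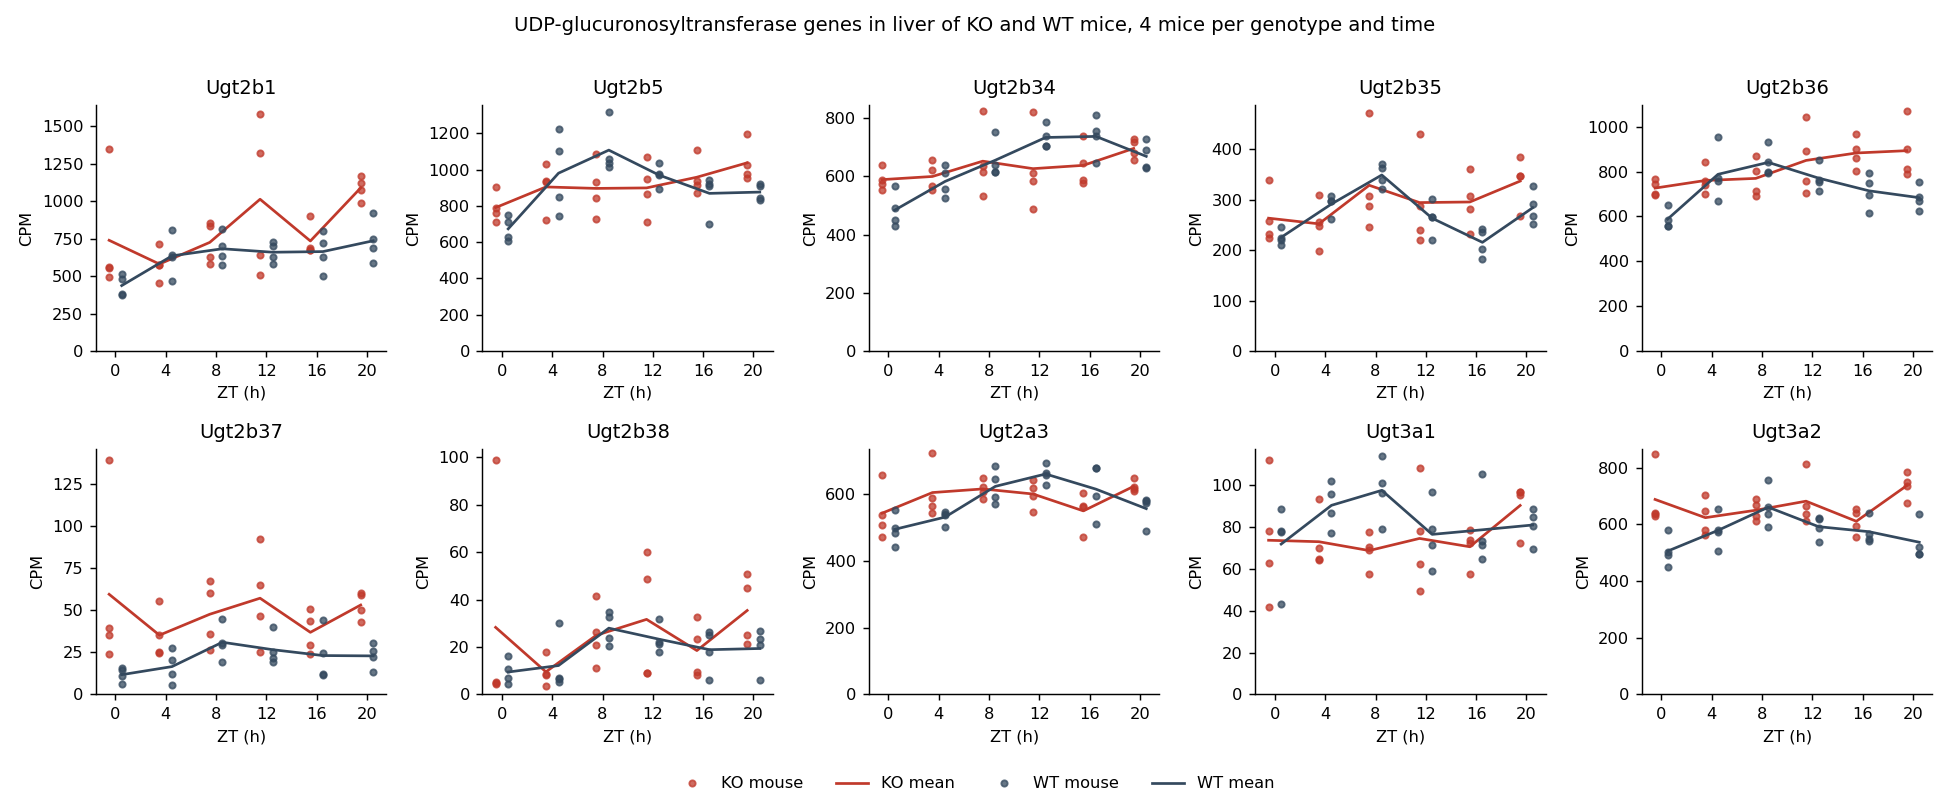
CPM (y axis, from 0) of each gene against ZT in hours (x axis); each point is 1 mouse, with KO drawn just left of WT, and lines join the means of 4 mice. Ugt2b37 is higher in the KO mean at each of the 6 times, and 1 KO mouse of ZT0 stands far above its group in Ugt2b1, Ugt2b37 and Ugt2b38.

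Averaged over the 6 times, 4 of the 10 genes were higher in KO liver and 0 were lower: Ugt2b37, Ugt3a2, Ugt2b36 and Ugt2b1. Over all genes tested, 4.94% were called higher and 3.92% lower in KO (8.86% in either direction). A gene was called where edgeR's quasi-likelihood test gave an adjusted p (Benjamini-Hochberg over all 14836 genes) under 0.05. For the lower direction, 0 of the 10 had an unadjusted p under 0.05, and DESeq2 also called 0. The median log2 fold change, KO minus WT, was 0.15 over the 10 genes and 0.001 over all genes tested.

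Ugt2b37 rose the most. It ranged in KO mice between 23.9 and 139 CPM with a median of 43.1, and in WT mice between 5.70 and 44.9 CPM with a median of 21.2. All 24 KO mice stood above the WT median and 11 above the highest WT mouse, though the ranges overlapped. The mean was 48.2 ± 26.0 CPM in KO and 21.95 ± 10.9 CPM in WT (SD, n = 24 each), with a log2 fold change of 1.17 ± 0.19 (SE, adjusted p = 4.415e-05) and KO higher at 6 of 6 times. Without KO mouse 43 of ZT0 it was 1.03, and without the 4 libraries it was 1.11, both still called. As a share of Ugt2b5 counts, Ugt2b37 stood at 2.58 to 15.4% in KO mice (median 4.69%) and at 0.466 to 4.77% in WT mice (median 2.403%). The part of shared reads in this rise was not tested.

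Ugt3a2 rose by less. KO mice had 555 to 848 CPM (median 644) and WT mice 449 to 755 CPM (median 577.5). The ranges overlapped, but 22 of 24 KO mice stood above the WT median and 3 above the highest WT mouse. The log2 fold change was 0.21 ± 0.04 (SE, adjusted p = 0.000846), with means of 665.5 ± 75.5 CPM in KO and 575 ± 70.7 CPM in WT (SD, n = 24 each), higher in KO at 5 of 6 times. Its neighbour Ugt3a1 had a log2 fold change of -0.14 ± 0.09 (SE, adjusted p = 0.375), with 75.1 ± 17.7 CPM in KO and 82.6 ± 15.97 CPM in WT (SD, n = 24 each). As a share of Ugt3a2 counts, Ugt3a1 had a median of 11.2% in KO and 14.3% in WT.

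Ugt2b36 and Ugt2b1 were also higher in KO. Ugt2b36 ranged between 689.6 and 1070 CPM in KO (median 796) and between 556 and 954 CPM in WT (median 752.5). Most of the 2 ranges overlapped, and 3 of 24 KO mice stood above the highest WT mouse. The log2 fold change of Ugt2b36 was 0.16 ± 0.04 (SE, adjusted p = 0.0187), and without the 4 libraries it was 0.12 (adjusted p = 0.0848). Ugt2b1 ranged between 457 and 1580 CPM in KO (median 682) and between 375 and 919 CPM in WT (median 632). Here 7 of 24 KO mice stood above the highest WT mouse, and the SD was 309.7 CPM in KO and 138.5 CPM in WT. Its log2 fold change was 0.34 ± 0.10 (SE, adjusted p = 0.0319), higher in KO at 5 of 6 times. The call for Ugt2b1 ended without KO mouse 43 of ZT0 (adjusted p = 0.0558), KO mouse 20 of ZT12 (0.0529) or KO mouse 30 of ZT16 (0.0505). It also ended with body weight in the model (log2 fold change 0.37, adjusted p = 0.0713) and with limma voom and cage as a random block (0.30, adjusted p = 0.0558). Without the 4 libraries it was 0.27 and still called. KO mice were the lighter ones, and the part of body weight in this difference was not tested beyond that fit.

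The other 6 genes did not pass. Ugt2b38 was the most variable of the 10: it ranged in KO mice between 3.58 and 98.8 CPM (median 19.4) and in WT mice between 4.37 and 34.8 CPM (median 20.7). The medians were close, while 6 of 24 KO mice stood above the highest WT mouse. Its log2 fold change was 0.39 ± 0.30 (SE, adjusted p = 0.457), and without KO mouse 43 it was -0.04 and without the 4 libraries -0.06. Ugt2b35 had 295 ± 69.1 CPM in KO and 271 ± 51.0 CPM in WT (SD, n = 24 each; log2 fold change 0.13 ± 0.07 SE, adjusted p = 0.256). Ugt2b5, Ugt2a3 and Ugt2b34 lay close to 0, with log2 fold changes of 0.01 ± 0.06, 0.03 ± 0.04 and -0.01 ± 0.05 (SE) and adjusted p of 0.909, 0.717 and 0.928.

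**Figure D3:**
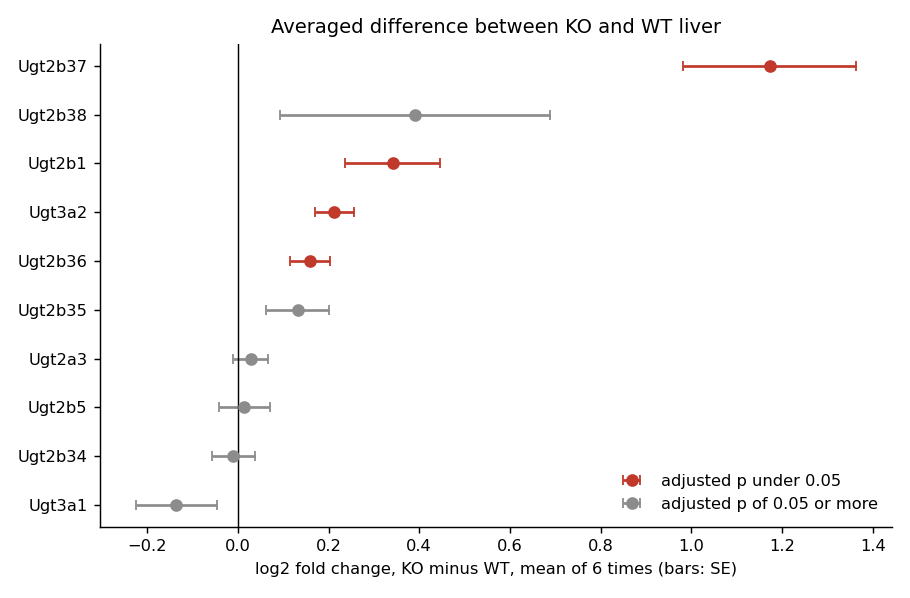
Log2 fold change, KO minus WT, averaged over 6 times (x axis) for each gene (y axis), as points with SE bars; red points have an adjusted p under 0.05. Ugt2b37 stands at 1.17, the other 3 called genes between 0.16 and 0.34.

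Ugt2b37 and Ugt2b38, which share their promoter window and most of their coding sequence, differed in their ratio between genotypes. Ugt2b37 exceeded Ugt2b38 by a median of 2.82-fold in KO mice (0.952 to 8.12) and 1.16-fold in WT mice (0.681 to 3.10). On the log2 scale the ratio was 1.37 ± 0.93 in KO and 0.32 ± 0.56 in WT (SD, n = 24 each). The difference of 1.05 had the same sign at 6 of 6 times (two-sided permutation test within times, 100000 resamples, p = 1e-05, the smallest they can give). Without the 4 libraries the difference was 1.25, an alternative chosen after the data were seen. The ratio uses the same counts as the fold changes of the 2 genes given above, so its p-value is not separate evidence. As a share of Ugt2b5 counts, Ugt2b38 had a median of 1.905% in KO and 2.11% in WT. It shared 34.2% of its 50-base windows with Ugt2b5, and the part of shared reads in the ratio was not tested.

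At single times, 3 of the 60 gene and time pairs were called, all higher in KO: Ugt2b37 at ZT0, and Ugt3a2 at ZT0 and ZT20. Among all genes, the share called was 1.68% for ZT0, 3.79% for ZT4, 7.87% for ZT8, 11.7% for ZT12, 5.37% for ZT16 and 1.05% for ZT20. Ugt2b37 at ZT0 had 23.9, 35.2, 39.4 and 139 CPM in KO mice, against 6.29, 10.7, 14.45 and 15.5 CPM in WT mice. The groups did not overlap, and the KO mean was pulled up by mouse 43. The log2 fold change was 2.34 ± 0.49 (SE, adjusted p = 0.00841 by edgeR), and it was 1.49 without that mouse. The call ended without that mouse (adjusted p = 0.0912) or without WT mouse 48 (adjusted p = 0.0511), and without the 4 libraries it was 1.67 (adjusted p = 0.0959).

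Ugt3a2 at ZT0 had 629.6, 637, 639.6 and 848 CPM in KO mice, against 449, 493, 501 and 580.4 CPM in WT mice. At ZT20 it had 676, 735, 750 and 786 CPM in KO mice, against 495.1, 495.2, 521.5 and 638 CPM in WT mice. The KO mice stood above all WT mice at both times. The log2 fold changes were 0.44 ± 0.10 at ZT0 (SE, adjusted p = 0.0199 by edgeR) and 0.46 ± 0.10 at ZT20 (adjusted p = 0.0196 by edgeR). The ZT0 call ended without KO mouse 43 (adjusted p = 0.114), WT mouse 47 (0.0549) or WT mouse 48 (0.115), and without the 4 libraries (log2 fold change 0.33, adjusted p = 0.210). Fitted with body weight, the ZT0 value was 0.42 (adjusted p = 0.0501). The ZT20 call ended without KO mouse 39 (0.0774), WT mouse 33 (0.0937) or WT mouse 35 (0.0792).

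Over the day, no 24 h wave was called in KO liver for any of the 10 genes, while 5 of them had a modest wave in WT liver. A 24 h cosine was fitted in each genotype, and its amplitude is the distance from mean to peak on the log2 scale. In KO, 0 of the 10 were called, against 0.984% of all genes; 2 of the 10 (Ugt2b1 and Ugt2b36) had an unadjusted p under 0.05, and DESeq2 called 0. In WT, 5 of the 10 genes were rhythmic (Ugt2a3, Ugt2b5, Ugt2b34, Ugt2b36 and Ugt3a2), against 48.1% of all genes tested. The rhythm differed between KO and WT for 5 of the 10, the same 5 that were rhythmic in WT, against 22.8% of all genes. The median amplitude of the 10 was 0.10 in KO and 0.21 in WT, beside 0.11 in KO and 0.18 in WT over all genes. The KO count and the WT share lay near those of all genes, and the share with a rhythm difference lay above that of all genes, with no test of that.

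Ugt2b34 had the largest called amplitude. Its group means ran in KO between 589 ± 36.4 CPM at ZT0 and 696 ± 33.8 CPM at ZT20, and in WT between 484 ± 61.1 CPM at ZT0 and 737 ± 69.6 CPM at ZT16 (SD, n = 4 each). The KO means thus stayed inside the range of the WT means. The amplitude was 0.06 ± 0.05 in KO and 0.27 ± 0.05 in WT (SE), with the WT peak at ZT 13.6 (adjusted p = 0.000127 for the WT rhythm and 0.0490 for the difference, edgeR). Leaving out 1 mouse ended the call of the difference in 26 of 48 fits, and so did no filter (adjusted p = 0.0867) or body weight (0.0644).

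Ugt2a3 peaked in WT at ZT 12.3. Its amplitude was 0.04 ± 0.04 in KO and 0.20 ± 0.04 in WT (SE; adjusted p = 0.000282 for the WT rhythm and 0.0388 for the difference). The call of the difference ended with total counts only (adjusted p = 0.0573), no filter (0.0724) or body weight (0.0585), and in 10 of 48 fits that left out 1 mouse (up to 0.0707, without KO mouse 43). Group means ran in KO between 543 ± 80.6 CPM at ZT0 and 623.5 ± 17.9 CPM at ZT20, and in WT between 495 ± 45.8 CPM at ZT0 and 661 ± 26.5 CPM at ZT12 (SD, n = 4 each).

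Ugt2b5, Ugt2b36 and Ugt3a2 shared an earlier WT peak, at ZT 9.56, 9.36 and 9.61. Ugt2b5 had an amplitude of 0.09 ± 0.06 in KO and 0.24 ± 0.06 in WT (SE), a WT wave of 1.40-fold from trough to peak (adjusted p = 0.00467 for the WT rhythm and 0.0409 for the difference). This difference was not called with total counts only (adjusted p = 0.0569), with no filter (0.0584) or in 7 of 48 fits that left out 1 mouse (up to 0.0939, without WT mouse 16). Ugt3a2 had 0.06 ± 0.04 in KO and 0.15 ± 0.04 in WT (SE; adjusted p = 0.0149 for the WT rhythm and 0.0317 for the difference), and the difference was not called with total counts only (0.0555) or in 3 of 48 fits that left out 1 mouse. Ugt2b36 had 0.14 ± 0.05 in KO and 0.20 ± 0.05 in WT (SE), so the sizes were close, but the fitted peak stood at ZT 15.9 in KO and ZT 9.36 in WT. The KO wave of Ugt2b36 was not called (adjusted p = 0.133), while the WT wave (0.00216) and the difference (0.00804) were.

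The times of the lowest and highest group means also differed between genotypes. For 9 of the 10 genes the highest KO mean was at ZT20, with Ugt2b37 at ZT0 as the exception, and for 7 of the 10 the highest WT mean was at ZT8. The lowest WT mean was at ZT0 for 9 of the 10, all but Ugt2b35. Ugt2b35 was instead lowest in WT at ZT16 (215 ± 28.7 CPM) and highest at ZT8 (349 ± 22.4 CPM; SD, n = 4 each). The 24 h cosine did not call this WT rhythm (amplitude 0.21 ± 0.08 SE, adjusted p = 0.0648), close to the threshold. It did call it with total counts only (adjusted p = 0.0373), a mean of at least 1 CPM (0.0464), body weight (0.0477), without the 4 libraries (0.0405) and by DESeq2 (0.0493). A test of any change over the 6 times, added after the data were seen, also called it (adjusted p = 0.00807, edgeR). That test called 0 of the 10 in KO, against 0.91% of all genes (Ugt2b1 and Ugt2b36 had an unadjusted p under 0.05), and 6 of the 10 in WT, against 47.9% of all genes. These 10 patterns come from the same mice and are not independent. The times of the highest and lowest means were taken after TMM scaling. They were not counted over all genes or with total counts only.

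The KO minus WT difference itself changed with time for 2 of the 10, Ugt2b36 (adjusted p = 0.0414) and Ugt3a2 (adjusted p = 0.0467), by edgeR's interaction test, which called 20.7% of all genes. Ugt2b36 was higher in KO without overlap at ZT0, ZT16 and ZT20, where its log2 fold changes were 0.30 ± 0.11, 0.31 ± 0.11 and 0.39 ± 0.11 (SE; adjusted p = 0.136, 0.0928 and 0.0744, none called). At ZT4 and ZT8 they were -0.05 ± 0.11 and -0.13 ± 0.11. Ugt2a3, Ugt2b1, Ugt2b5 and Ugt2b37 at ZT20 were also higher in KO without overlap, and Ugt3a1 at ZT8 was lower without overlap, none called. The share of all genes without overlap was not computed, for these pairs or for those of Ugt2b37 and Ugt3a2 given above. The interaction call ended in 19 of 48 fits that left out 1 mouse for Ugt2b36, and in 28 of 48 for Ugt3a2.

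For the remaining genes the 24 h wave was not called in either genotype. Ugt2b37 had a WT amplitude of 0.54 ± 0.20 (SE, adjusted p = 0.0749, and 0.0361 without the 4 libraries) and Ugt2b38 of 0.62 ± 0.32 (adjusted p = 0.237), both with wide errors. Ugt2b1 had an amplitude of 0.31 ± 0.12 in KO (adjusted p = 0.219) and 0.18 ± 0.12 in WT (adjusted p = 0.411). Ugt3a1 had 0.12 ± 0.09 in KO (adjusted p = 0.589) and 0.14 ± 0.09 in WT (adjusted p = 0.352).

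**Figure D4:**
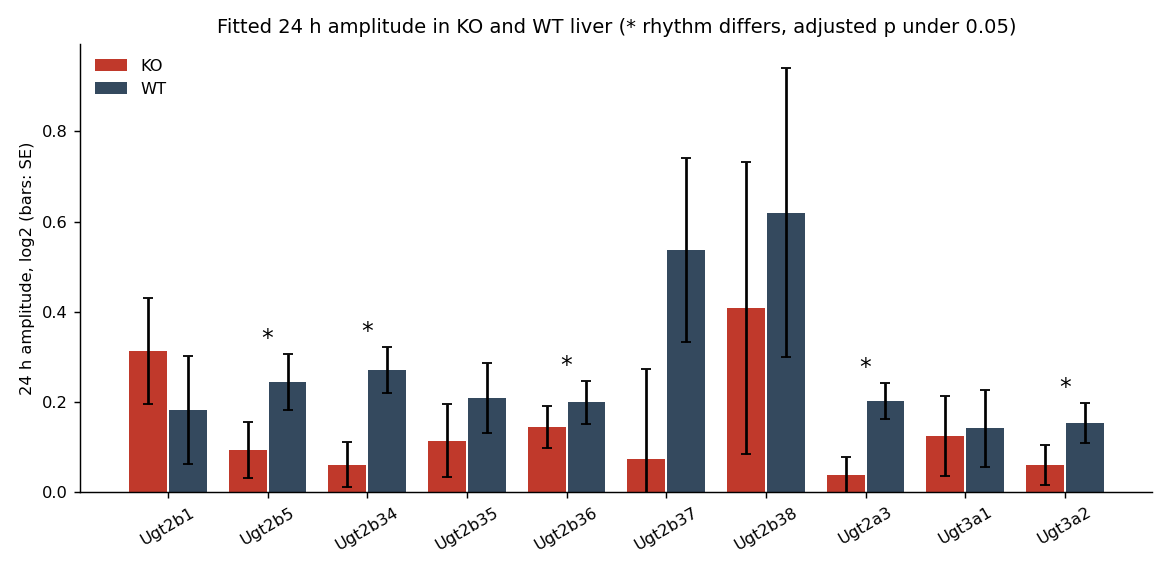
Fitted 24 h amplitude on the log2 scale (y axis, from 0) in KO and WT liver for each gene (x axis), with SE bars; an asterisk marks a rhythm difference with an adjusted p under 0.05. The 5 marked genes have WT amplitudes of 0.15 to 0.27 and KO amplitudes of 0.04 to 0.14.

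Mice of the same genotype and time differed from each other in several of these genes together, and the clearest cases were Ugt2b38 and Ugt2b1. Ugt2b1 and Ugt2b38 are known as genes more abundant in male than in female mouse liver. In KO, the 5 mice highest in Ugt2b38 were mouse 43 of ZT0 (98.8 CPM), mice 20 and 24 of ZT12 (59.8 and 48.8 CPM) and mice 38 and 34 of ZT20 (50.6 and 44.9 CPM). The same 5 were the highest of the KO mice in Ugt2b1, with 1345, 1580, 1319, 1170 and 1124 CPM in that order.

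A list of 14 other genes known as male-biased in mouse liver (such as Cyp2d9, Elovl3 and Hsd3b5) and a list of 15 female-biased genes (such as Cyp3a41b, Cyp2c69 and Sult2a1) were each averaged as log2 CPM in every mouse. The same 5 KO mice were the 5 highest in the male-biased mean and the 5 lowest in the female-biased mean. Correlations were taken over the deviations from the mean of each genotype and time group, so they hold within times, and the lists share library and depth with the Ugt genes. In all, 40 relations were computed, and p-values are two-sided permutation tests within times, adjusted over the 40.

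Ugt2b38 followed the male-biased mean in KO, with r = 0.933 and rho = 0.923 over 24 mice (adjusted p = 0.0004 each). Without the 2 mice farthest from the median r was 0.914, and without the 4 libraries 0.928 over 20 mice. In WT, r was 0.754 and rho 0.659 (adjusted p = 0.00487 and 0.0144), and 0.674 without the 2 farthest mice. Against the female-biased mean, Ugt2b38 had r = -0.856 and rho = -0.848 in KO (adjusted p = 0.0004 and 0.0012). There r was -0.834 without the 2 farthest mice and -0.829 without the 4 libraries. In WT that relation was r = -0.354 and rho = -0.349 (adjusted p = 0.188 and 0.23), not called.

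Ugt2b1 followed the male-biased mean in both genotypes. In KO, r was 0.872 and rho 0.855 (adjusted p = 0.00152 and 0.0025; r = 0.796 without the 2 farthest mice and 0.850 without the 4 libraries). In WT, r was 0.849 and rho 0.856 (adjusted p = 0.0004 each; r = 0.801 without the 2 farthest). Against the female-biased mean it had r = -0.818 in KO and -0.639 in WT (adjusted p = 0.0022 and 0.00487). Without the 4 libraries the KO value was -0.653 over 20 mice.

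**Figure D5:**
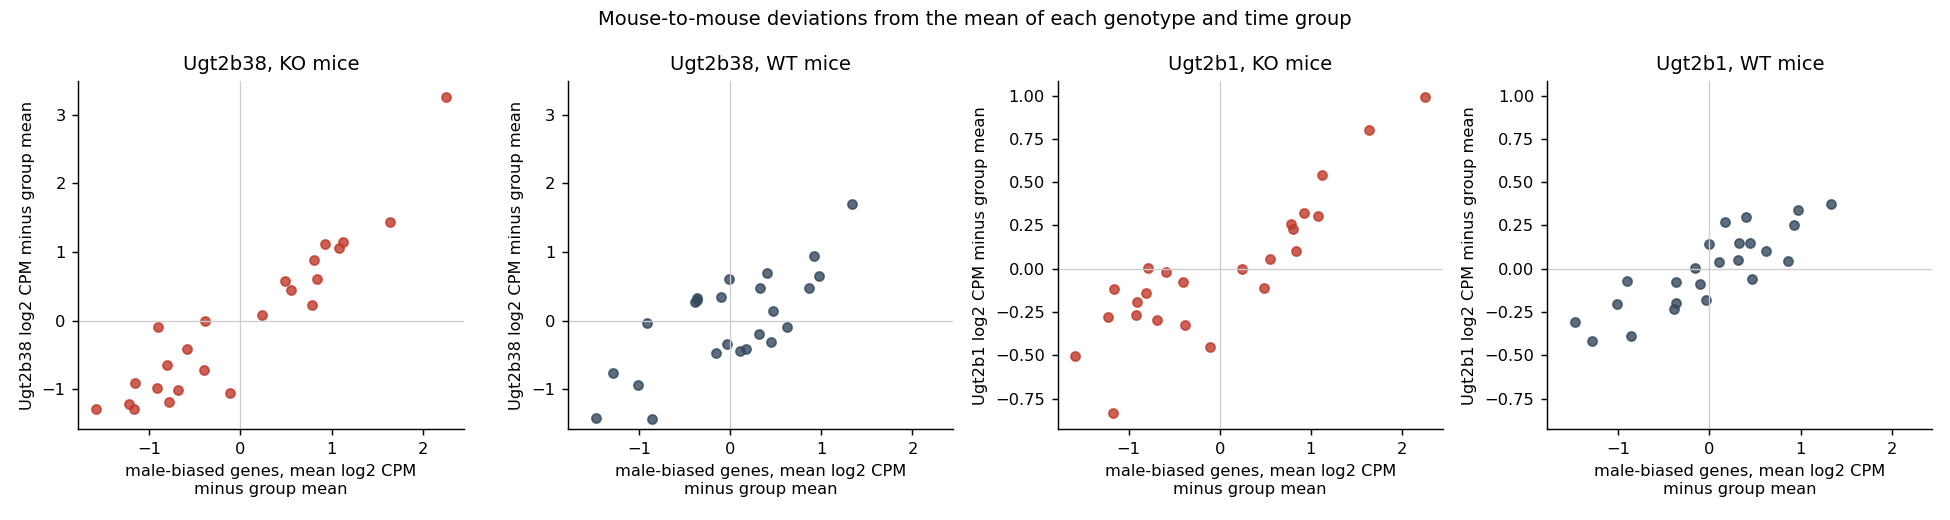
Log2 CPM of Ugt2b38 (left pair) and Ugt2b1 (right pair), as deviations from the mean of each genotype and time group (y axis), against the same deviation of the mean of 14 male-biased genes (x axis), with KO left of WT in each pair; each point is 1 of 24 mice. Pearson's r is 0.933 in KO and 0.754 in WT for Ugt2b38, and 0.872 in KO and 0.849 in WT for Ugt2b1.

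All 10 genes had a positive r with the male-biased mean in KO and in WT, and 5 of the 10 passed in KO (Ugt2b38, Ugt2b1, Ugt2b35, Ugt2b34 and Ugt2b37) and 4 in WT (Ugt2b1, Ugt2b38, Ugt2b5 and Ugt2b34). The sign did not hold for Ugt3a2: its r in KO was 0.341, but -0.117 without the 2 farthest mice and -0.348 without the 4 libraries, and in WT it was 0.106, but -0.0600 without the 2 farthest mice. With the female-biased mean 4 passed in KO and 3 in WT by Pearson's r, all negative; of these, Ugt2b34 in WT did not pass by rho (adjusted p = 0.0617). Ugt2b35 had r = 0.776 and rho = 0.730 in KO (adjusted p = 0.0009 and 0.00413) and r = 0.251 and rho = 0.221 in WT (adjusted p = 0.386 and 0.525). Ugt2b34 had r = 0.668 in KO and 0.539 in WT (adjusted p = 0.00258 and 0.0358). Ugt2b37 had r = 0.647 in KO (adjusted p = 0.0358). Without the 4 libraries, r with the male-biased mean in KO was 0.702 for Ugt2b35, 0.597 for Ugt2b34 and 0.504 for Ugt2b37. With the female-biased mean in KO, r went from -0.730 to -0.528 for Ugt2b35 and from -0.690 to -0.475 for Ugt2b34. Ugt2a3, Ugt2b36, Ugt3a1 and Ugt3a2 did not pass against either list in KO or in WT. The difference of any of these correlations between genotypes was not tested. The relations were computed for the 10 genes only, so no share of all genes stands beside these counts. Whether other liver genes follow the lists as closely was not tested. The members are not independent of each other here: within KO, the deviations of Ugt2b34 and Ugt2b35 correlated at r = 0.929, those of Ugt2b5 and Ugt2b36 at 0.893, and those of Ugt2b1 and Ugt2b38 at 0.881 (24 mice).

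The 2 lists themselves moved unequally with genotype. Of the 15 female-biased genes, 9 were higher and 0 lower in KO (median log2 fold change 1.55), among them Cyp2c69, a cytochrome P450 gene, at 425.5 CPM in KO and 109 CPM in WT, and Sult2a1, a sulfotransferase, at 12.3 CPM in KO and 1.06 CPM in WT. For the lower direction, 0 had an unadjusted p under 0.05 and DESeq2 called 0. Of the 14 male-biased genes, Hsd3b5 was higher (log2 fold change 1.86, adjusted p = 0.0143) and Cyp2u1 (-0.79, adjusted p = 0.000112) and Selenbp2 (-1.01, adjusted p = 0.0481) were lower. Ugt2b1, although known as male-biased, was therefore on the higher side in KO, and Ugt2b38 passed in neither direction.

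Other genes of glucuronidation came from lists chosen with earlier results known. Of 8 other UGT genes tested, 1 was higher and 0 lower in KO. For the lower direction 0 had an unadjusted p under 0.05 and DESeq2 called 0. The gene called was Ugt1a5, with 34.6 CPM in KO and 24.9 CPM in WT (log2 fold change 0.46 ± 0.14 SE, adjusted p = 0.0275). Genes of the Ugt1a family share their last exons, so their separate counts are uncertain. Ugt1a1, which conjugates bilirubin, stood at 168.5 CPM in KO and 169 CPM in WT (adjusted p = 0.99).

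Of 11 genes tested from a list for the supply, use and release of UDP-glucuronate, 3 were higher in KO and 0 lower. For the lower direction, 0 also had an unadjusted p under 0.05 and DESeq2 called 0. Ugp2, which makes UDP-glucose, had 373 CPM in KO and 324 CPM in WT (log2 fold change 0.21 ± 0.06 SE, adjusted p = 0.0249). Rgn and Gulo, which act on the way from glucuronate to vitamin C, had log2 fold changes of 0.22 ± 0.04 and 0.25 ± 0.05 (SE, adjusted p = 0.000163 and 0.00153). Ugdh, which makes UDP-glucuronate itself, had 154 CPM in KO and 162.5 CPM in WT (adjusted p = 0.426). In WT, 7 of the 11 were rhythmic, against 48.1% of all genes. The rhythm differed for 3 of the 11 (Ugp2, Uxs1 and Gusb), near the 22.8% of all genes.

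Of 4 exporters of glucuronides, 1 was lower in KO and 0 were higher (2 lower at an unadjusted p under 0.05, and 2 by DESeq2). The gene called was Abcc3, which pumps conjugates into blood, with 381 CPM in KO and 430.5 CPM in WT (log2 fold change -0.16 ± 0.05 SE, adjusted p = 0.0291, edgeR). Abcg2 had a larger change of -0.20 ± 0.07 (SE, adjusted p = 0.0629, edgeR), not called. The rhythms of Abcc3 and of Abcc2, the pump into bile, differed between KO and WT (adjusted p = 0.000244 and 0.0116, edgeR), as did those of 22.8% of all genes. Of 12 regulators known to act on UGT genes, 0 were called in either direction over the 6 times; 6 had an unadjusted p under 0.05, 3 each way, and DESeq2 called 0. The largest values were those of Foxa2 (0.22 ± 0.09 SE, adjusted p = 0.122) and Nr1i3, the receptor CAR (0.18 ± 0.07 SE, adjusted p = 0.114). In WT 9 of these 12 were rhythmic, against 48.1% of all genes. Those whose rhythm differed between KO and WT, as called for 22.8% of all genes, included Foxa2, Nr1i2, Nr1i3, Ppara and Rxra. Of the 4 PAR bZIP factors and partners (Dbp, Hlf, Tef and Nfil3), which bind D-boxes, 0 were called over the 6 times (2 higher at an unadjusted p under 0.05, DESeq2 0). All were rhythmic in WT and differed between genotypes, against 48.1% and 22.8% of all genes. Their WT amplitudes lay between 0.36 (Hlf) and 3.47 (Dbp).

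The genes whose log2 CPM ran most like a member over the 48 mice were found for the members with most counts and for those with the smallest p of the rhythm difference. Ugt2b5 ran most like Ugt2b36 (r = 0.857), Cdadc1 (0.801) and Tmem59 (0.800). Ugt2b36 ran most like Ugt2b5, Tmem59 (0.830) and Ugp2 (0.821). Ugt3a2 ran most like Sult1d1, a sulfotransferase (0.735), Cyp2a12 (0.727) and Enpp2 (0.718). These values include the shared effect of time and genotype and are a description.

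Markers of other cell types were few among the called genes. The endothelial gene Kdr was lower in KO (log2 fold change -0.18 ± 0.05 SE, adjusted p = 0.0107, edgeR). The other endothelial markers, Stab2 (0.09), Lyve1 (0.11) and Pecam1 (0.01), lay on the higher side and were not called. The hepatocyte gene Apoa1 was higher (0.33 ± 0.09 SE, adjusted p = 0.0194, edgeR). Of the other hepatocyte markers, Serpina1c (0.10) lay on the higher side and Ttr (-0.06), Cps1 (-0.11) and Tat (-0.16) on the lower, none called. Of 5 Kupffer cell and macrophage markers 0 were called, while 4 were higher at an unadjusted p under 0.05 and DESeq2 called 0; their summed level was 387 to 1077 CPM in KO and 480 to 902 CPM in WT. Cholangiocyte markers had 0 of 5 called by edgeR, with 1 higher at an unadjusted p under 0.05 and 1 by DESeq2, and summed to 45.5 to 108 CPM in KO and 41.5 to 98.4 CPM in WT. Stellate, lymphocyte and red cell markers and the kidney and intestine markers had 0 called by edgeR and 0 by DESeq2, with 1 stellate marker lower at an unadjusted p under 0.05. Umod and Slc34a1, which mark kidney tubules, were below the filter. The part of these cells in the Ugt values was not tested.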

How the data were processed

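Poly-A RNA libraries of 48 livers were made with a kit that does not record strand, per the labels' protocols. CASAVA (version not given) and STAR 2.4.0f1 with mm9 are named in the submitters' processing notes. The authors deposited whole-number counts per gene; library totals of 33562272 to 34035644 show a nearly common depth, by a step not given in the sources used here, so the depth sequenced is unknown. The counter, gene models and handling of reads that match several genes are not given either.

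CPM and log2 values were computed here from the deposited counts (edgeR 4.0.16, limma 3.58.1, DESeq2 1.42.0, R 4.3.3). TMM factors were 0.898 to 1.14, and filterByExpr with a minimum count of 10 kept 14836 of 23732 genes. edgeR's quasi-likelihood test was run with 12 genotype and time groups (36 residual degrees of freedom) and with a 24 h cosine per genotype (42). Adjusted p-values are Benjamini-Hochberg over all genes tested, with a threshold of 0.05. The SE of a fold change is its size over the root of F, and that of an amplitude is approximate. Correlations used log2 CPM with a prior count of 2. The steps were tested on simulated data. Separate mice are the replicates; intervals cover counting error only.

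The members and lists were chosen with earlier results of these data known. All 10 members are named; from other lists, up to 4 called genes by smallest adjusted p, or the 2 with the largest change where fewer than 2 were called. Ugt1a1, Ugdh, Abcc2 and genes named only for a rhythm were chosen after their values were seen. Alternatives were RLE size factors, total counts only, no filter, a mean of at least 1 CPM, body weight, cage as a random block, 4 libraries left out, each mouse left out and DESeq2; a test of any change over the 6 times, and the correlations and ratio without the 4 libraries, were added after the data were seen. Sequences are from RefSeq (GRCm38.p6) and are not mixed with the mm9 coordinates. Alb is not analysed here, and the results of 1 regulator are not reported here.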

Additional observations from a re-analysis of the deposited data

Results flagged for a closer look

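In 120 sets of 4 mice (10 genes in 12 groups), 10 held a mouse whose distance to its nearest neighbour took up more of the group's range than Dixon's limit allows; chance gives about 1 in 20 groups. KO mouse 43 of ZT0 accounted for 4 of them, as the highest of its group in Ugt2b1 (1345 CPM), Ugt2b37 (139 CPM), Ugt2b38 (98.8 CPM) and Ugt3a2 (848 CPM). KO mouse 30 of ZT16 was far above its group in Ugt2b1 (899.9 CPM), and KO mouse 39 of ZT20 far below its group in Ugt3a1 (72.2 CPM). In WT, mouse 3 of ZT4 was high in Ugt2b38 (29.98 CPM) and mouse 16 of ZT8 in Ugt2b5 (1319 CPM). Mouse 29 of ZT16 was low in Ugt2b5 (697.5 CPM) and mouse 35 of ZT20 in Ugt2a3 (490.6 CPM).

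The 24 h rhythm differed between KO and WT for Ugt2a3 (adjusted p = 0.0388), Ugt2b5 (0.0409), Ugt2b34 (0.0490), Ugt2b36 (0.00804) and Ugt3a2 (0.0317) by edgeR. The difference KO minus WT itself differed between times for Ugt2b36 (adjusted p = 0.0414) and Ugt3a2 (0.0467).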

How the results depend on the processing

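In all, 474 values came from 8 settings and from the added test of any change over the 6 times. Of these, 436 kept their direction and side of the threshold or, for counts of genes, stayed within 1.5 times. Of the rest, 21 lost a call, 6 gained one, 8 counts moved by over 1.5 times and 3 changed sign. The count of genes with a rhythm difference, 5, was 2 with total counts only, 2 with no filter and 3 with body weight. The interaction count, 2, was 0 with total counts only, 0 with no filter, and 1 each with body weight, with cage as a random block and without the 4 libraries; the cause was not tested. The sign changes were of genes that were not called: Ugt2b34 at 0.00202 with body weight, and Ugt2b5 at -0.0223 and Ugt2b38 at -0.0592 without the 4 libraries. Leaving out each of the 48 mice gave 3 to 4 genes called over the 6 times, 5 to 6 rhythmic in WT, 0 to 0 in KO, 2 to 6 with a rhythm difference, 0 to 3 with an interaction and 1 to 4 calls at single times. The averaged log2 fold changes then ran from 1.03 to 1.26 for Ugt2b37, 0.19 to 0.23 for Ugt3a2 and 0.14 to 0.18 for Ugt2b36, called in all 48 fits, and from -0.0372 to 0.549 for Ugt2b38, -0.0366 to 0.00575 for Ugt2b34 and -0.00559 to 0.0341 for Ugt2b5, called in 0. Over all genes, 1314 were called on average over the day, 711 with body weight and 1513 by DESeq2. Mouse numbers pair no mice across groups. Of 19 shared cages, 11 held both genotypes; cage entered only as a random block, and KO and WT cage mates were not tested as pairs. The deposited counts of the 10 genes were no fewer than 124 in any library. Pairs of libraries of the same group were set against counting error over genes with enough counts, taking deposited counts as reads. The mean chi-square per gene, a squared departure over the variance that counting error gives, was 30.3 to 171.1 across pairs. For the 10 genes alone counting error was not compared with the spread between mice, and the depth sequenced is unknown. Reads shared among Ugt2b5, Ugt2b37 and Ugt2b38 limit their separate levels.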
